A study of Mus musculus with 10 samples.

Results

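CpG methylation was examined at 9 genes of the interferon gamma, IL-12 and IL-18 axis in mouse lung: the ligand genes Ifng, Il12b and Il18, the receptor genes Ifngr1, Il12rb1, Il12rb2, Il18r1 and Il18rap, and Stat4. The members were every 1000-bp window (step 500 bp) that overlapped the RefSeq span of a gene or the 5 kb on either side of it. There were 134 such windows of 446336, and 129 of 421759 had at least 20 CpG calls in all 10 mice. A CpG call is one read-out of one CpG in one read, and methylation is the percentage of calls that were methylated. The windows that passed were 5 of 5 at Ifng, 12 of 12 at Il12b, 12 of 12 at Il18, 6 of 9 at Ifngr1, 29 of 30 at Il12rb1, 27 of 27 at Il12rb2, 6 of 6 at Il18r1, 4 of 4 at Il18rap and 28 of 29 at Stat4.

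IL-12, a heterodimer that contains the IL-12 p40 chain encoded by Il12b, is released by dendritic cells and macrophages and acts on T cells and natural killer cells through a receptor built from the Il12rb1 and Il12rb2 products. This receptor activates STAT4, which promotes transcription of Ifng, and IL-18 acts together with IL-12 on the same cells through the Il18r1 and Il18rap chains. Interferon gamma is the defining cytokine of type 1 helper T cells and restrains type 2 responses, the arm that dominates allergic airway inflammation.

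The lungs came from female BALB/c mice aged 8 weeks, a strain inclined to type 2 responses. The saline group (n = 3) received no allergen. In the OVA group (n = 3) allergy to ovalbumin (OVA) was set up with 50 µg doses for sensitization and 25 µg doses for challenge, and the DSE group (n = 4) was given OVA in this way together with 200 mg/kg of DSE, an extract of Descurainia sophia, by mouth. The labels call the last group Herb; it was taken as DSE because the series title names that plant alone. The assay was SureSelect Methyl-seq: probes capture selected regions and bisulfite converts unmethylated cytosines.

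Total calls per mouse ran from 306656737 to 410836272 over all windows, and a window of the 9 genes held a median of 465 calls in a mouse. Mean methylation over all windows was 50.9 to 52.8%. The saline mice, at 50.9 to 51.5%, were all below the OVA-induced (51.9 to 52.8%) and DSE-treated mice (51.7 to 52.8%). The tissue was bulk lung, and promoter methylation of marker genes moved with the groups. Means were taken over the genes of each list that had a promoter window. Over 6 of 6 pan-leukocyte genes the mean was 55.6 to 56.3% in saline, 42.4 to 47.8% in OVA-induced and 43.3 to 46.3% in DSE-treated mice. Among these genes Coro1a moved little, with group means of 29.7, 28.6 and 27.4% in the same order. The mean over 5 of 5 eosinophil genes was 55.3 to 59.3%, 51.4 to 54.0% and 47.6 to 53.0% in the same order, and that over 3 of 6 myeloid genes was 56.1 to 57.4%, 49.8 to 52.1% and 52.3 to 53.4%. The groups overlapped in the mean over 5 of 8 T cell genes (52.6 to 55.9%, 48.7 to 53.1% and 48.8 to 54.1%). They also overlapped in that over 4 of 6 B cell genes (45.1 to 48.9%, 45.4 to 48.6% and 47.6 to 49.98%). At 4 of 6 endothelial genes the mean was 25.5 to 28.8%, 30.9 to 33.8% and 29.1 to 30.9%, and at 6 of 8 lung epithelial genes it was 27.9 to 28.3%, 28.7 to 28.8% and 27.6 to 30.7%. Of the endothelial genes Kdr, Cldn5 and Tek had higher group means in DSE-treated than in saline mice, whereas Tie1 did not (40.4, 44.7 and 39.2%). None of the 6 natural killer and cytotoxic genes had a promoter window here. In bulk DNA a changed share of a cell type and a change of methylation within cells cannot be told apart, and the part of these shifts in the results at the 9 genes was not tested.

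Methylation averaged over the windows of each gene placed Ifng highest and Ifngr1 lowest in saline lungs. The order was Ifng (72.7% ± 3.93, SD, n = 3), Il18r1 (63.9% ± 3.16), Il12b (59.0% ± 1.16), Il18 (58.8% ± 2.44), Il12rb2 (52.8% ± 0.975), Stat4 (47.6% ± 0.506), Il12rb1 (47.0% ± 0.612), Il18rap (44.3% ± 2.98) and Ifngr1 (34.0% ± 0.208). The ranges over mice overlapped between the neighbours Il12b and Il18, Stat4 and Il12rb1, and Il12rb1 and Il18rap, and between no other neighbours. These levels depend on which windows were captured: the little-methylated starts of Ifngr1 and Il12rb2 were covered, whereas the windows nearest the starts of Stat4, Il18r1 and Il18rap were centred 9.4, 13.4 and 22.1 kb inside the genes. At Stat4 a later transcript start inside the gene was covered, whereas Il18r1 and Il18rap had no promoter window.

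**Figure D1:**
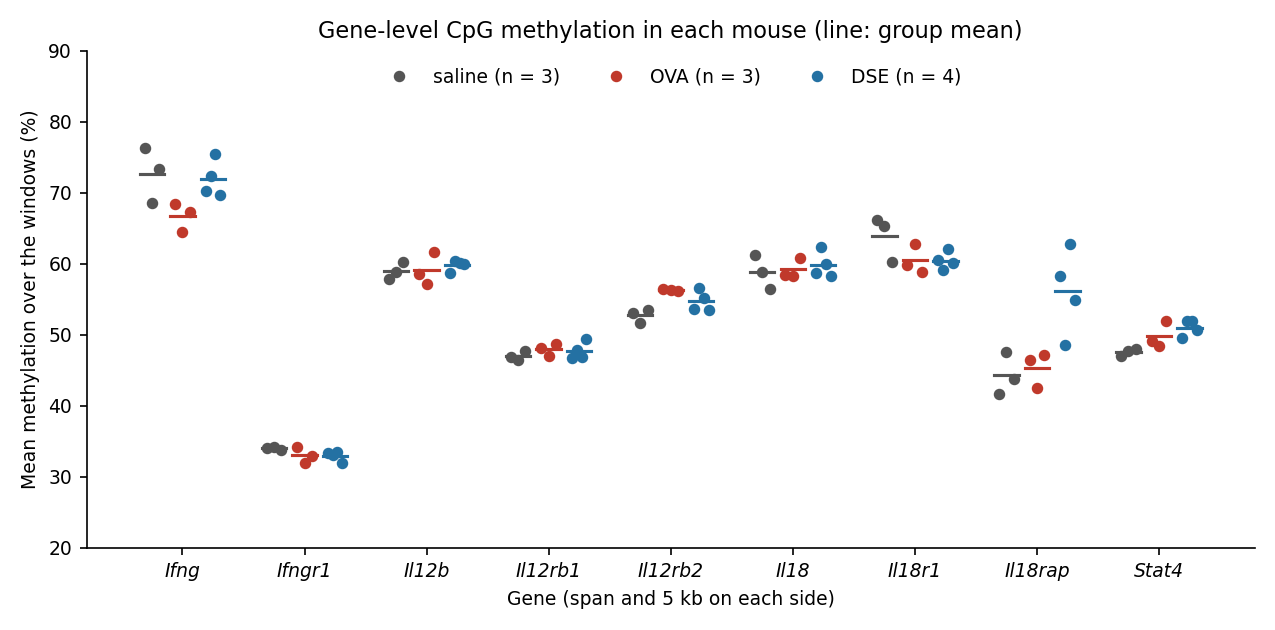
Methylation (%, vertical axis) averaged over the windows of each of the 9 genes (horizontal axis) in each mouse (points) with the group mean (lines), for the saline (3), OVA-induced (3) and DSE-treated (4) animals; the vertical axis starts at 20%. The 4 DSE-treated mice lie above all other mice at Il18rap, where the DSE vs. OVA difference is 10.8 points here and 1.69 when calls are pooled over the windows. The 3 OVA-induced mice lie below all other mice at Ifng, a direction that flips when calls are pooled over the windows (-5.98 against 1.602 percentage points in OVA vs. saline).

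A window was called a differentially methylated region (DMR) when a logistic likelihood ratio test of its calls, adjusted over all 421759 windows by Benjamini-Hochberg, gave p below 0.01 and the pooled methylation differed by at least 10 percentage points. OVA vs. saline, which asks what allergen exposure is accompanied by, gave 9 hyper methylated and 8 hypo methylated DMR windows of 129 (13.2%), against 7.43% of all windows (4.83% hyper and 2.6% hypo). DSE vs. OVA, which asks what the extract is accompanied by, gave 6 hyper methylated windows and no hypo methylated one (4.65%), against 1.59% of all windows (0.888% hyper and 0.699% hypo); 28 windows were lower at an unadjusted p under 0.05 in the same test, and limma, described next, called 0 lower windows at an adjusted p (against 0.087% of all windows) and 9 at an unadjusted p under 0.05. DSE vs. saline gave 16 hyper methylated and 10 hypo methylated windows (20.2%), against 8.11% of all windows (5.02% and 3.09%). OVA vs. saline and DSE vs. saline share the saline mice, and 13 windows (10.1%, against 4.67% of all windows) were called in both with the same sign. OVA vs. saline and DSE vs. OVA share the OVA-induced mice, and 1 window, at Ifng, was called in both with opposite signs (0.775%, against 0.304% of all windows).

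The test treats calls as independent and has no term for the spread between mice. limma on M-values (the log2 ratio of methylated to unmethylated calls), which tests over mice, called 11 windows in OVA vs. saline (8.53%, against 5.22% of all windows), 2 in DSE vs. OVA (1.55%, against 0.475%; both before the start of Il12b) and 20 in DSE vs. saline (15.5%, against 8.73%) at an adjusted p under 0.05. An F test with overdispersion in the logistic model called 0 of 129 windows in each comparison, with 26, 12 and 38 windows at an unadjusted p under 0.05, and it called 0 of all windows too. The mice of the groups did not overlap in 47 windows in OVA vs. saline (36.4%, against 27% of all windows), 22 in DSE vs. OVA (17.1%, against 10.3%) and 37 in DSE vs. saline (28.7%, against 24.3%). The median difference over the 129 windows was 1.61 percentage points for OVA vs. saline, -0.37 for DSE vs. OVA and 0.82 in DSE vs. saline, beside 0.73, -0.03 and 0.73 over all windows. Neighbouring windows overlap by 500 bp and can share calls, so DMR windows that touched were merged, which left 4 regions in each direction in OVA vs. saline, 4 hyper methylated ones in DSE vs. OVA, and 9 hyper methylated and 5 hypo methylated ones in DSE vs. saline.

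**Figure D2:**
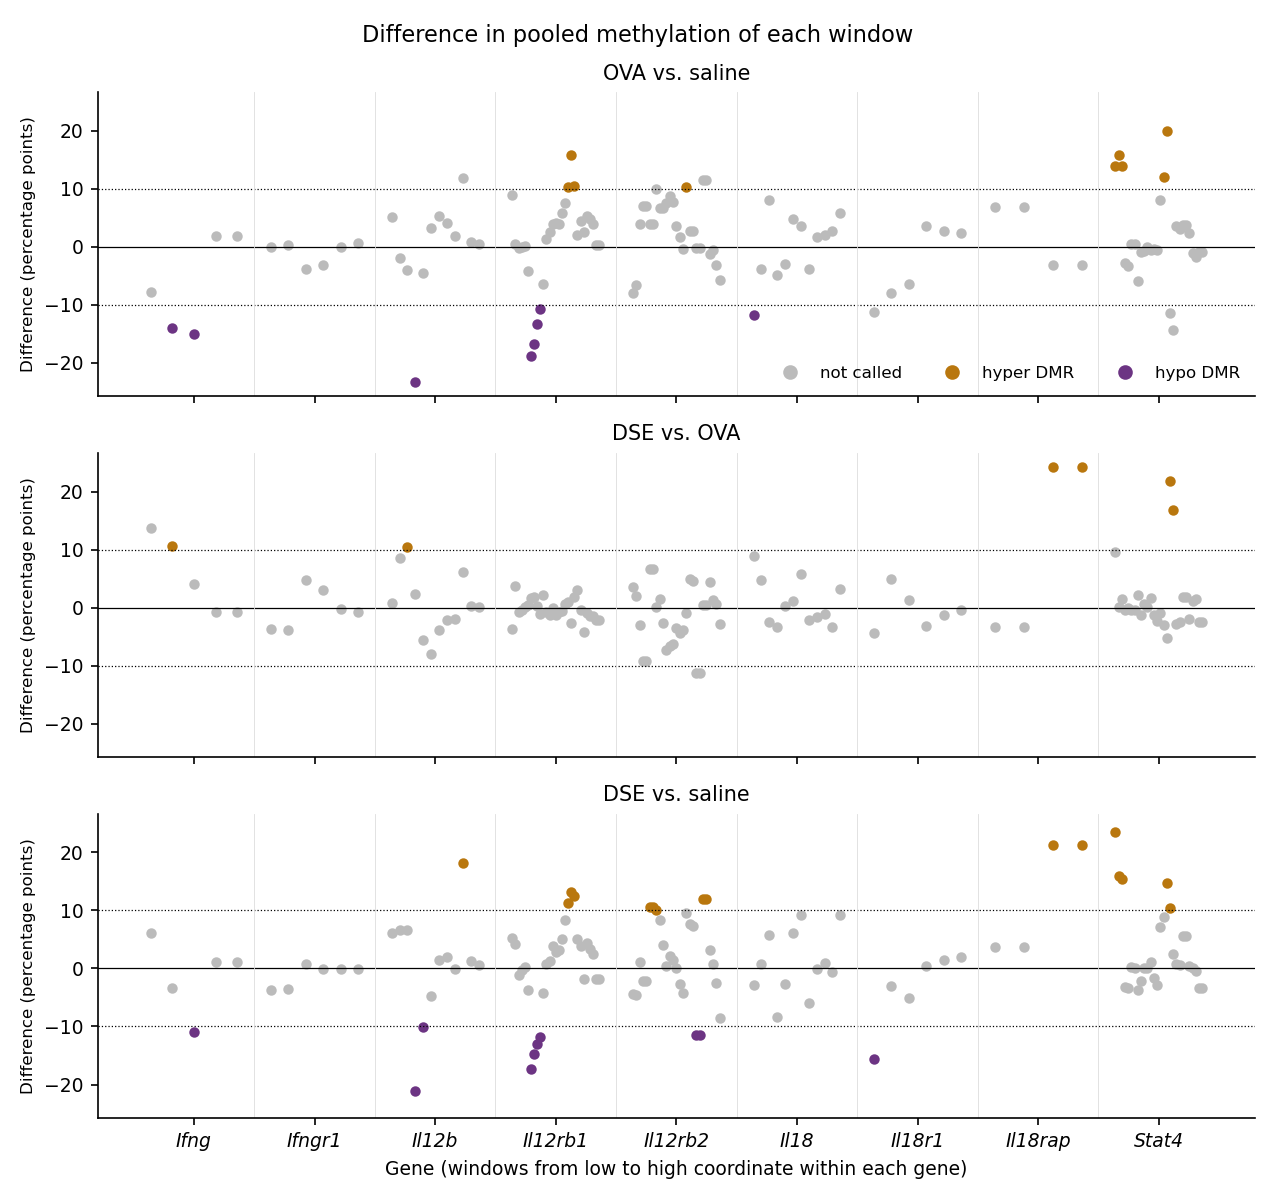
Difference in pooled methylation (percentage points, vertical axis) of each of the 129 windows, grouped by gene and ordered by coordinate (horizontal axis), in OVA vs. saline (top), DSE vs. OVA (middle) and DSE vs. saline (bottom); coloured points are hyper and hypo DMRs and dotted lines mark 10 points. DMRs lie on both sides of 0 in the comparisons with saline (9 above and 8 below in OVA vs. saline), whereas all 6 in DSE vs. OVA lie above it.

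Ifng, the gene of interferon gamma (chr10:118441046-118445894, plus strand), was less methylated near its start in OVA-induced lungs. The stretch that carries the window called in both directions is shown because it holds 5 of its CpGs, in capitals here and in every sequence below; all are the plus strand of GRCm38, a C57BL/6J genome, in which CpGs that differ in BALB/c were not looked for.
Ifng chr10:118441561-118441860: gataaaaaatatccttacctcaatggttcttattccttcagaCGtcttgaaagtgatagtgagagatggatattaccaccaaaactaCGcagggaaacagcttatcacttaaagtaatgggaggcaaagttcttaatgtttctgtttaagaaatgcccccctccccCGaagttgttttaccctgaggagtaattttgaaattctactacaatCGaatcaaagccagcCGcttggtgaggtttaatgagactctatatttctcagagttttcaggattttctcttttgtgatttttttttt
In this window (chr10:118441501-118442500, 133 to 570 calls per mouse, centred 1.0 kb past the start) methylation was 68.0, 50 and 55.6% in the saline mice, 42.9, 42.0 and 49.0% in the OVA-induced mice and 54.2, 53.4, 62.0 and 50% in the DSE-treated mice. Every OVA-induced mouse was below every saline and every DSE-treated mouse, the nearest values being 49.0 and 50%. Pooled methylation fell by 13.9 percentage points in OVA vs. saline (adjusted p = 4.52e-05, likelihood ratio test) and rose by 10.6 in DSE vs. OVA (adjusted p = 0.000785). Over mice, limma gave adjusted p = 0.119 and 0.465. The first call was lost without saline replicate 1 (-8.23 points) and the second without OVA replicate 1 (9.92), OVA replicate 2 (8.92) or DSE replicate 3 (8.29).

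In the next Ifng window (chr10:118442001-118443000, 110 to 374 calls) methylation was 62.7, 44.4 and 50.7% in the saline mice, 33.6, 33.6 and 46.4% in the OVA-induced mice and 38.5, 40.9, 49.8 and 39.6% in the DSE-treated mice. Saline replicate 1 was the highest mouse and the groups overlapped. It was hypo methylated in OVA vs. saline (-15.1 points, adjusted p = 8.26e-05, likelihood ratio test) and in DSE vs. saline (-11.0, 0.00029). Both calls were lost without saline replicate 1 (-9.64 and -5.55 points), and the latter also without DSE replicate 1 (-9.37). The window nearest the start (chr10:118441001-118442000), with only 23 to 196 calls per mouse, ran from 61.5% in OVA replicate 3 to 88.2% in DSE replicate 2 and was not called. At the 3' end of the gene, a pair of windows with the same calls lay between 83.0 and 91.1% in all mice.

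Averaged over the 3 windows within 1000 bp of the start, Ifng methylation was 71.9, 55.4 and 61.5% in the saline mice, 54.5, 48.2 and 52.3% in the OVA-induced mice and 59.0, 60.8, 66.2 and 57.0% in the DSE-treated mice. The OVA-induced mice were again the 3 lowest. The difference was -11.3 points (SE 3.86, limma adjusted p = 0.102) in OVA vs. saline and 9.10 (SE 3.61, limma adjusted p = 0.287) in DSE vs. OVA, and neither passed. The exact permutation p values were 0.1 and 0.0571, the smallest that 3 against 3 and 3 against 4 mice allow. Among 5445 genes whose promoter methylation varied by an SD of at least 3 points, the profiles over the 10 mice most like that of Ifng were those of Gm36816 (r = 0.884), Gm36602 (0.860), Elovl2 (0.852), Mir7012 (0.849) and Atxn1l (0.833), given as a description.

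Over all 5 windows Ifng had 76.3, 68.5 and 73.3% in the saline mice, 68.4, 64.5 and 67.3% in the OVA-induced mice and 70.2, 72.3, 75.4 and 69.7% in the DSE-treated mice. The OVA-induced mice were the lowest here as well, but the differences did not pass in OVA vs. saline (-5.98 points, SE 2.07, limma adjusted p = 0.0807) or DSE vs. OVA (5.20 points, SE 1.93, limma adjusted p = 0.432). Their signs turned when calls were pooled over the windows, which gives the deep 3' windows more weight: the pooled differences were 1.602 points for OVA vs. saline and -2.60 points for DSE vs. OVA.

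Il12b, which encodes the p40 chain shared by IL-12 and IL-23 (chr11:44400063-44414677, plus strand), differed at its upstream flank between DSE-treated mice and all others. This flank is rich in CpGs, and a window there differed in DSE-treated mice. The densest part of that window is shown, which holds 16 of its 26 CpGs. Calls were counted per window, so which of these CpGs differed is not known.
Il12b chr11:44399005-44399304: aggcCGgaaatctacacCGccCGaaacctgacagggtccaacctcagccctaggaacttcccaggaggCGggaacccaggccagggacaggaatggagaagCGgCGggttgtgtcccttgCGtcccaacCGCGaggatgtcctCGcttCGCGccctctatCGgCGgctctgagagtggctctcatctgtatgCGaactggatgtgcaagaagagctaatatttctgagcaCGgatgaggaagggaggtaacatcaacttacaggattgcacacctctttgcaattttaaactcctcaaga
The window around it (chr11:44399001-44400000, 709 to 1135 calls, centred 0.6 kb before the start) had 4.51, 10.4 and 8.07% in the saline mice, 2.47, 4.64 and 4.83% in the OVA-induced mice and 15.2, 12.4, 14.7 and 15.4% in the DSE-treated mice. All 4 DSE-treated mice were above all 6 other mice, and the saline and OVA-induced mice overlapped. Group means were 7.66% ± 2.96, 3.98% ± 1.31 and 14.4% ± 1.37 (SD; n = 3, 3 and 4). DSE vs. OVA was hyper methylated by 10.5 points (adjusted p = 5.52e-51 by likelihood ratio, 0.0249 by limma), which dropped to 9.69 without OVA replicate 1 and then missed the 10 points. Against saline the difference was 6.61 points, below the threshold.

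The window before it (chr11:44398501-44399500), which shares part of these calls, had 5.37, 7.95 and 7.92% in the saline mice, 4.19, 5.35 and 6.31% in the OVA-induced mice and 14.5, 12.05, 13.6 and 15.03% in the DSE-treated mice. The same 4 mice were highest, with a difference of 8.55 points in DSE vs. OVA that was under 10 and so not called (limma adjusted p = 0.0176). The mean of both, the promoter level of Il12b, rose by 9.48 points in DSE vs. OVA (SE 1.06, limma adjusted p = 0.00567) and by 6.75 in DSE vs. saline (SE 1.06, limma adjusted p = 0.00543). It was the only one of 7 genes with promoter windows to pass in DSE vs. OVA, where 1.94% of 24652 genes did. The Il12b promoter level kept passing without any single mouse, at 8.83 to 10.1 points in DSE vs. OVA and 5.53 to 7.65 in DSE vs. saline.

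Inside Il12b, an intronic window 4.9 kb past the start (chr11:44404501-44405500) showed the greatest fall of the 129 windows in OVA vs. saline. It was shallow, with 30 to 127 calls per mouse, and had 70.8, 83.3 and 87.7% in the saline mice, 59.3, 48.5 and 65.8% in the OVA-induced mice and 55.9, 57.6, 62.0 and 59.5% in the DSE-treated mice. All OVA-induced and DSE-treated mice were below all saline mice. Pooled methylation fell by 23.4 points in OVA vs. saline (adjusted p = 6.03e-05 by likelihood ratio, 0.0293 by limma) and by 21.1 in DSE vs. saline (1.41e-05 and 0.0189). The first call was lost without OVA replicate 2 (-17.6 points) or saline replicate 3 (-18.5), and the second without saline replicate 3 (-16.2). The stretch of this window with the most CpGs, shown for its sparse CpGs beside the dense flank above, holds 3.
Il12b chr11:44405040-44405339: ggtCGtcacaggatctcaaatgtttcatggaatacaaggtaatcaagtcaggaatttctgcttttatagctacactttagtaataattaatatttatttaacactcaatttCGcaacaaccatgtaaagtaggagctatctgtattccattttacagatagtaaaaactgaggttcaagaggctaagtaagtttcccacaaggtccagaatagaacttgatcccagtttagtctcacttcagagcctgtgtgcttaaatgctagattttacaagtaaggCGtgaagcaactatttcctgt
A further intronic window (chr11:44411501-44412500, 49 to 94 calls) had 61.1, 51.0 and 65.3% in the saline mice, 70.2, 71.2 and 74.7% in the OVA-induced mice and 77.9, 79.2, 79.5 and 75.7% in the DSE-treated mice. Here the DSE-treated mice were all above the OVA-induced mice, which were all above the saline mice, and DSE vs. saline was hyper methylated by 18.1 points (adjusted p = 0.000175 by likelihood ratio, 0.00757 by limma). The window chr11:44405001-44406000 was also hypo methylated in DSE vs. saline (-10.04 points, adjusted p = 0.00028 by likelihood ratio), with overlapping groups, and lost the call without saline replicate 2 (-9.39), saline replicate 3 (-8.07), or DSE replicate 1 (-9.09), 2 (-9.88) or 3 (-8.93). The remaining 7 windows of Il12b were not called in any comparison.

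Il18, the gene of the IL-1 family cytokine IL-18 (chr9:50554700-50581841, plus strand), had 1 DMR window of 12. It lies 2.7 kb before the start (chr9:50551501-50552500, 127 to 484 calls), where the neighbouring gene Bco2 also reaches, and had 56.8, 55.9 and 59.0% in the saline mice, 48.3, 40.6 and 48.0% in the OVA-induced mice and 54.3, 57.3, 56.9 and 47.7% in the DSE-treated mice. The OVA-induced mice were below all saline mice, and DSE replicate 4 fell among them. Pooled methylation fell by 11.8 points in OVA vs. saline (adjusted p = 0.000382 by likelihood ratio, 0.06 by limma), and without OVA replicate 2 the call was lost at -9.00 points. In DSE vs. OVA the difference was 8.82 points and was not called. The start of Il18 was partly methylated, at 23.8% ± 4.45, 18.6% ± 2.35 and 15.2% ± 3.10 in the window chr9:50554001-50555000 (SD; saline, OVA and DSE); it was not called, although the DSE-treated mice were all below the saline mice.

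Ifngr1, which encodes the ligand-binding chain of the interferon gamma receptor (chr10:19591949-19610229, plus strand), had no DMR in any comparison. Its start was nearly unmethylated, at 0.602 to 1.52% over the 10 mice in the window chr10:19591501-19592500 (1832 to 3130 calls). In the window 0.9 kb before the start (chr10:19590501-19591500) methylation was 18.9, 27.2 and 22.0% in the saline mice, 20.2, 15.5 and 19.6% in the OVA-induced mice and 23.4, 20.6, 30.1 and 19.8% in the DSE-treated mice. The groups overlapped, and this largest difference of the gene was 4.73 points in DSE vs. OVA. Of the 9 windows of the gene, 3 had fewer than 20 calls in some mouse and were not tested.

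Il12rb1, whose product is shared by the IL-12 and IL-23 receptors (chr8:70808360-70823542, plus strand), held more DMR windows in OVA vs. saline than any other of the 9 genes: 4 hypo methylated windows upstream and 3 hyper methylated windows in the 3' part, all of which were also called in DSE vs. saline. It also had the most tested windows (29), and the called ones overlap and merge into an upstream and a 3' region. At Ifng 2 of 5 windows were called in OVA vs. saline. The upstream region spans chr8:70805501-70808000, next to the start of the neighbouring gene Mast3, which lay at 0.98 to 4% in 3 windows. In the strongest window of this region every mouse with OVA differed from every mouse without it. The stretch of that window with the most CpGs is shown, which holds 6 of 12. Counts per window do not place the difference within it.
Il12rb1 chr8:70805769-70806068: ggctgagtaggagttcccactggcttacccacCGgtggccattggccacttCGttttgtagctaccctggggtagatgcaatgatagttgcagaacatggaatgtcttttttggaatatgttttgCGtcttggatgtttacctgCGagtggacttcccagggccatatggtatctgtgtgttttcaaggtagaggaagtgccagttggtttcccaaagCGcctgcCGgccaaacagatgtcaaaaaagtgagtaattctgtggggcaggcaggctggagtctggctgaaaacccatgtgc
That window (chr8:70805501-70806500, 375 to 507 calls, centred 2.4 kb before the start) had 88.9, 84.5 and 86.4% in the saline mice, 69.2, 68.4 and 66.1% in the OVA-induced mice and 69.4, 69.9, 67.8 and 70.6% in the DSE-treated mice. The 7 mice given OVA, with or without DSE, lay between 66.1 and 70.6%, all below the lowest saline mouse at 84.5%. Pooled methylation fell by 18.9 points in OVA vs. saline (adjusted p = 3.86e-30 by likelihood ratio, 0.0105 by limma) and by 17.3 in DSE vs. saline (3.96e-30 and 0.00406). The difference between DSE-treated and OVA-induced mice was 1.599 points (adjusted p = 0.564, likelihood ratio test).

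The 3 windows that follow towards the gene were hypo methylated too, with -16.7, -13.3 and -10.7 points for OVA vs. saline and -14.8, -13.1 and -11.7 for DSE vs. saline. In each of them all mice given OVA were below all saline mice. The window nearest the start of the gene (chr8:70807001-70808000) was the weakest and lost its call in OVA vs. saline without saline replicate 1 (-9.01) or OVA replicate 2 (-9.39), and in DSE vs. saline without DSE replicate 1 (-8.78). The mean over the pan-leukocyte promoters given above moved in the same direction between the same mice, and its part in this region was not tested.

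In the 3' part of Il12rb1 the exonic window chr8:70820001-70821000 (782 to 1421 calls) had 19.0, 15.9 and 20.5% in the saline mice, 32.2, 31.3 and 40.2% in the OVA-induced mice and 30.9, 29.9, 24.2 and 39.5% in the DSE-treated mice. All mice given OVA were above all saline mice. The rise was 15.8 points in OVA vs. saline (adjusted p = 5.65e-49 by likelihood ratio, 0.0271 by limma) and 13.2 in DSE vs. saline (5.83e-37 and 0.0315). The windows on either side rose by 10.3 and 10.5 points in OVA vs. saline and by 11.2 and 12.4 in DSE vs. saline. Both are near the threshold: leaving out saline replicate 1 or 2 or OVA replicate 3 brought each under 10 points in OVA vs. saline (7.64 to 9.90), as did OVA replicate 2 for the first (9.80) and OVA replicate 1 for the second (9.87), and leaving out DSE replicate 4 did so in DSE vs. saline (9.79 and 9.74). With opposite changes at its ends, Il12rb1 had nearly the same gene-level methylation in all groups, 47.0% ± 0.612, 48.0% ± 0.845 and 47.7% ± 1.25 (SD; saline, OVA and DSE). Over the gene span alone, without the 5 kb on each side, it was called higher in OVA vs. saline (4.87 points, limma adjusted p = 0.0341) and in DSE vs. saline (4.61, 0.0252). Its promoter level was -5.49 points in DSE vs. saline (SE 1.58, limma adjusted p = 0.0411), 1 of 2 promoter levels of 7 to pass in that comparison, beside 17.5% of all genes. This call held only without DSE replicate 2 and was lost without any other single mouse of these groups (-6.04 to -4.53 points, adjusted p 0.0541 to 0.119), and with start sites taken as 500 bp on either side (-3.18, adjusted p = 0.24). Its difference in OVA vs. saline was -5.20 (limma adjusted p = 0.0884), and none of the 7 passed there, with 4 at an unadjusted p under 0.05, beside 8.08% of all genes.

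**Figure D3:**
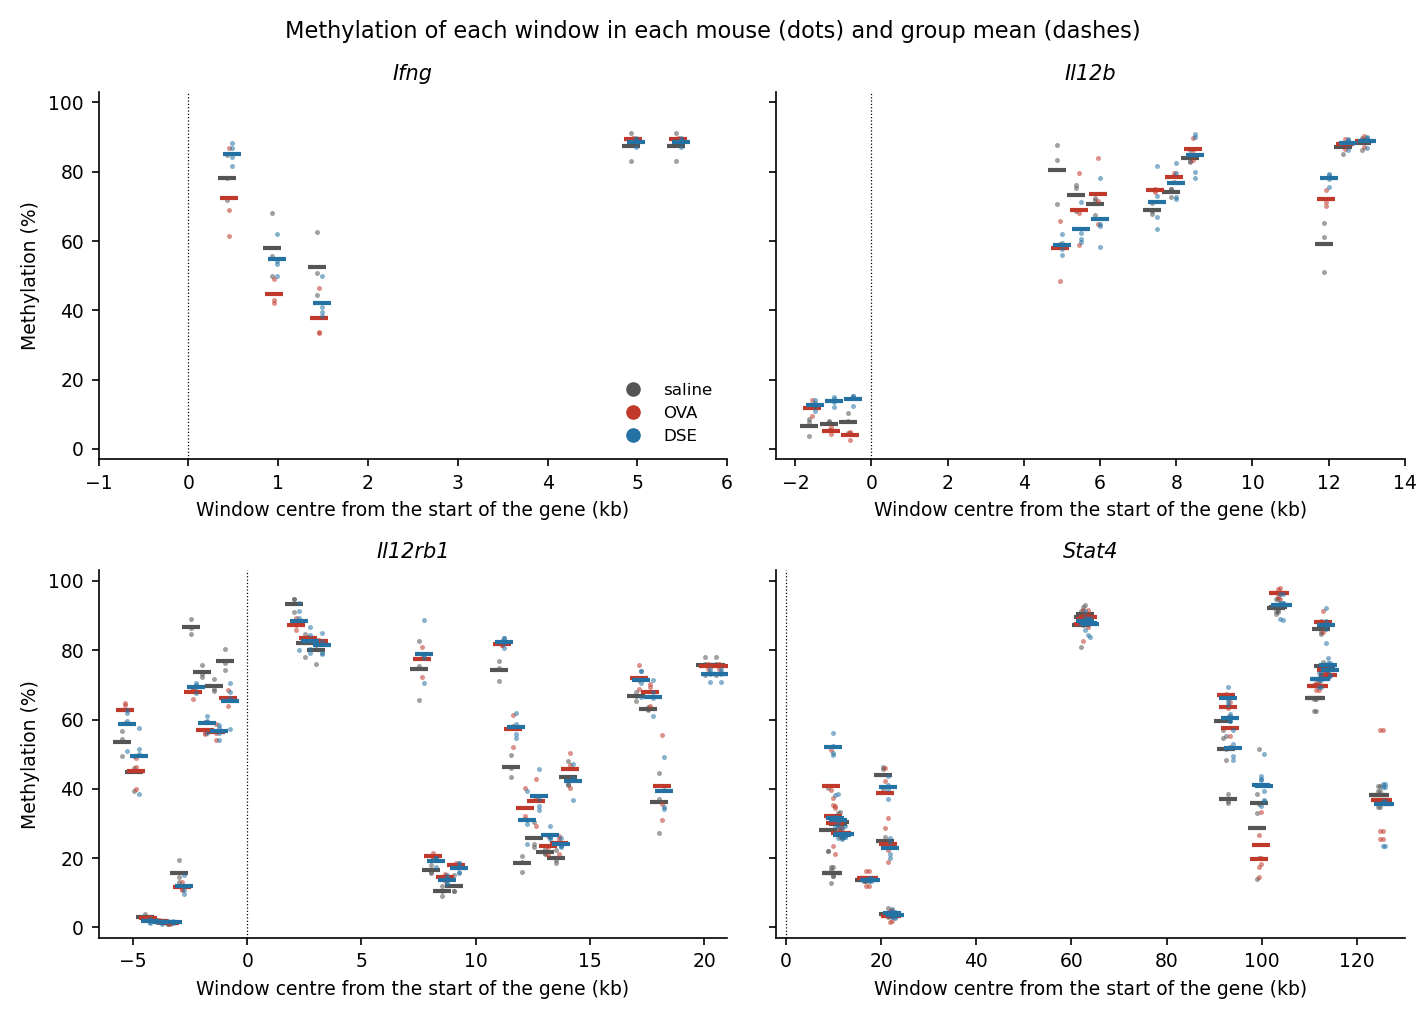
Methylation (%, vertical axis) of every window of Ifng, Il12b, Il12rb1 and Stat4 by the distance of its centre from the start of the gene (kb, horizontal axis), with 1 dot per mouse and a dash for the mean of each of the 3 groups; the dotted line is the start. At Il12rb1 the saline mice lie above all others in the 4 windows nearest before the start and have the lowest group mean in the 3 hyper methylated windows of the 3' part, and at Il12b the DSE-treated mice lie above the rest just before the start.

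Il12rb2, the signalling chain of the IL-12 receptor that type 1 helper T cells retain (chr6:67285986-67376293, minus strand), showed small differences spread over the gene body. In OVA vs. saline 1 of 27 windows was hyper methylated: the intronic window chr6:67317501-67318500 (142 to 240 calls) had 54.3, 52.4 and 52.4% in the saline mice, 62.1, 69.8 and 57.0% in the OVA-induced mice and 62.0, 66.2, 60.4 and 61.0% in the DSE-treated mice. All mice given OVA were above the saline mice, and the rise of 10.3 points (adjusted p = 0.00256, likelihood ratio test) was not called without OVA replicate 2 (6.77) or saline replicate 3 (9.89). Averaged over all 27 windows, Il12rb2 had 53.1, 51.7 and 53.5% in the saline mice, 56.4, 56.4 and 56.2% in the OVA-induced mice and 53.7, 56.6, 55.2 and 53.5% in the DSE-treated mice. The OVA-induced mice were close together above all saline mice, and the rise of 3.55 points (SE 0.943, limma adjusted p = 0.0371) was the only one of the 9 genes to pass at gene level in OVA vs. saline, where 12.5% of 32825 genes did. That call was lost without any single mouse of these groups (3.01 to 3.94 points, adjusted p 0.0572 to 0.123), and with calls pooled over the windows the difference was 0.441 points (limma adjusted p = 0.882).

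In DSE vs. saline 5 hyper methylated and 2 hypo methylated windows of Il12rb2 were called, and each of the 7 lost its call without at least 1 mouse. The hypo methylated windows hold the same calls; in chr6:67319501-67320500 (47 to 91 calls) methylation was 89.5, 89.4 and 85.5% in the saline mice, 84.5, 93.1 and 85.0% in the OVA-induced mice and 72.9, 78.0, 77.8 and 75.9% in the DSE-treated mice. All DSE-treated mice were below all other mice, with -11.5 points in DSE vs. saline (adjusted p = 0.00612 by likelihood ratio, 0.0311 by limma) and -11.2 in DSE vs. OVA (adjusted p = 0.0195 by likelihood ratio), which was not called. The first call was lost without saline replicate 1 (-10.7) or 2 (-10.9) or DSE replicate 1 (-10.5) or 4 (-11.3), where the adjusted p was 0.0128 to 0.0336. The hyper methylated windows lie at chr6:67295501-67297000, chr6:67299501-67300500 and chr6:67359001-67360500, with 10.0 to 11.9 points and overlapping groups; without single mice of either group they came to between 6.60 and 12.6 points in the fits that lost the call. The start of the gene was at 1.64 to 4.65% in chr6:67375501-67376500 and was not called in any comparison, although the DSE-treated mice were all above the OVA-induced mice.

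Il18r1, the IL-18 binding chain (chr1:40465552-40500854, plus strand), had 1 DMR window, in DSE vs. saline. This exonic window (chr1:40478501-40479500, 22 to 194 calls) had 76.0, 68.6 and 70.0% in the saline mice, 65.5, 64.5 and 40.9% in the OVA-induced mice and 52.5, 51.0, 66.9 and 52.9% in the DSE-treated mice. The saline mice were above all others, while OVA replicate 3 and DSE replicate 3 stood apart from their groups. The fall of 15.6 points (adjusted p = 0.000957 by likelihood ratio, 0.113 by limma) was not called without saline replicate 1 (-13.5). In the deeper window that follows (chr1:40479001-40480000, 547 to 957 calls) methylation was 40.9, 38.2 and 32.4% in the saline mice, 28.9, 30.8 and 27.7% in the OVA-induced mice and 35.1, 33.9, 35.4 and 31.9% in the DSE-treated mice. The OVA-induced mice were the lowest, with -7.92 points for OVA vs. saline and 4.93 for DSE vs. OVA, both under 10 points.

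Il18rap, the accessory chain that IL-18 signalling needs (chr1:40515362-40551707, plus strand), had the greatest rise of the 129 windows in DSE vs. OVA. An intronic pair of windows with the same calls, 29.1 and 29.6 kb past the start, carried it; the calls therefore come from the 500 bp the windows share, of which 300 bases are shown for the 3 CpGs they hold.
Il18rap chr1:40544593-40544892: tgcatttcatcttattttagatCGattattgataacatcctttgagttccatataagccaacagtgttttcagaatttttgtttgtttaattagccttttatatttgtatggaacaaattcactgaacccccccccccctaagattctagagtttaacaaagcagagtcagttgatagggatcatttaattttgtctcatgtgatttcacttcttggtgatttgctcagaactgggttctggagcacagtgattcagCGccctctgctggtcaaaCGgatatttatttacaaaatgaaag
In chr1:40544001-40545000 (53 to 348 calls) methylation was 6.85, 15.04 and 13.6% in the saline mice, 11.2, 1.89 and 8.05% in the OVA-induced mice and 40.5, 15.5, 41.2 and 28.8% in the DSE-treated mice. All DSE-treated mice were above all other mice, but DSE replicate 2 only just, and the spread in that group was wide (31.5% ± 12.1, SD, n = 4). The rise was 24.3 points in DSE vs. OVA (adjusted p = 4.64e-16 by likelihood ratio, 0.0945 by limma) and 21.2 in DSE vs. saline (4.1e-16 and 0.0781). OVA vs. saline was -3.10 points and was not called. The likelihood ratio calls held without any single mouse, whereas limma did not pass in either comparison.

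The other pair of Il18rap windows, also with the same calls, was at 74.1 to 86.2% over the 10 mice and was not called, although the OVA-induced mice were all above the saline mice. The gene-level value of Il18rap thus rests on 2 sets of calls. It rose by 11.8 points in DSE vs. saline (SE 2.84, limma adjusted p = 0.0208), where 18.8% of all genes passed, a call lost without saline replicate 1 (10.4, adjusted p = 0.068) or 3 (11.5, adjusted p = 0.0545). It was 10.8 points in DSE vs. OVA (SE 2.84, limma adjusted p = 0.215). With calls pooled over the windows the difference was 1.69 points in DSE vs. OVA (limma adjusted p = 0.731) and 8.46 in DSE vs. saline (0.0482).

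Stat4, the transcription factor activated by the IL-12 receptor (chr1:51987106-52107189, plus strand), had hyper methylated windows only. OVA vs. saline gave 5 of 28, DSE vs. OVA 2 and DSE vs. saline 5. The first region is chr1:51996001-51998000, in the 5' part of the gene. In its intronic window chr1:51996501-51997500 (373 to 506 calls) methylation was 17.5, 12.9 and 16.7% in the saline mice, 23.6, 37.3 and 35.3% in the OVA-induced mice and 27.3, 31.9, 29.4 and 38.1% in the DSE-treated mice. All mice given OVA were above all saline mice, by 15.8 points in OVA vs. saline (adjusted p = 4.85e-21 by likelihood ratio, 0.0254 by limma) and 16.0 in DSE vs. saline (3.39e-24 and 0.0145). In the window before it (chr1:51996001-51997000) saline replicate 3, at 40.3%, overlapped the OVA-induced mice at 31.6 to 51.3%, and the DSE-treated mice were at 49.8 to 56.2%. There the rise of 13.9 points in OVA vs. saline was not called without OVA replicate 2 (7.04) or saline replicate 1 (10.3, adjusted p = 0.0123 by likelihood ratio), while that in DSE vs. saline was 23.5.

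The second Stat4 region lies 93.4 kb into the gene and held the greatest rise of the 129 windows in OVA vs. saline. A stretch with 7 of the 15 CpGs of the window with that rise is shown for that reason.
Stat4 chr1:52080455-52080754: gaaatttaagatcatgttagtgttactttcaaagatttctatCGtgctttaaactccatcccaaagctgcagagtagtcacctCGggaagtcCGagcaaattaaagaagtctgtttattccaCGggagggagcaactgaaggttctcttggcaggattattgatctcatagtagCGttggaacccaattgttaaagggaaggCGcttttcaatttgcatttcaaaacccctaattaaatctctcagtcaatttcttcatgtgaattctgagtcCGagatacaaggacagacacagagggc
In chr1:52080001-52081000 (313 to 581 calls, intronic) methylation was 35.9, 38.6 and 36.4% in the saline mice, 65.2, 52.0 and 55.3% in the OVA-induced mice and 48.4, 56.9, 52.9 and 49.6% in the DSE-treated mice. The saline mice were close together and all below the mice given OVA. The rise was 19.95 points in OVA vs. saline (adjusted p = 1.71e-19 by likelihood ratio, 0.0162 by limma) and 14.8 in DSE vs. saline (5.41e-14 and 0.0225). The overlapping window chr1:52079501-52080500 rose by 12.01 points in OVA vs. saline and was 8.94 points in DSE vs. saline, under the threshold.

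The third Stat4 region differed between DSE-treated and OVA-induced mice. Its first stretch is shown for the 6 CpGs it holds.
Stat4 chr1:52086008-52086307: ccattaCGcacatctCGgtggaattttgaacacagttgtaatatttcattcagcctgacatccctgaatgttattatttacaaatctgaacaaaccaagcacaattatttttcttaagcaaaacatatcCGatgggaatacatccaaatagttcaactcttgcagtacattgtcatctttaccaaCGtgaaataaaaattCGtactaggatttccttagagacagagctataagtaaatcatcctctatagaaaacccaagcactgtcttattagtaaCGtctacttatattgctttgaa
In chr1:52086001-52087000 (intronic, 45 to 564 calls) methylation was 14.1, 33.0 and 38.6% in the saline mice, 26.7, 14.6 and 17.5% in the OVA-induced mice and 34.9, 43.7, 42.8 and 42.6% in the DSE-treated mice. Every DSE-treated mouse was above every OVA-induced mouse, while the saline mice spanned both groups. The rise in DSE vs. OVA was 21.8 points (adjusted p = 6.34e-08 by likelihood ratio, 0.188 by limma), and this call held without any single mouse. DSE vs. saline was 10.4 points and was not called without saline replicate 1 (4.73) or DSE replicate 2 (9.72), 3 (9.27) or 4 (9.89). The next window (chr1:52086501-52087500, 33 to 119 calls) rose by 16.8 points in DSE vs. OVA, a call lost without OVA replicate 2 (14.3) or 3 (14.8) or DSE replicate 3 (14.4).

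A later RefSeq transcript start inside the Stat4 span had 4 promoter windows, and none was called. The window chr1:52008501-52009500, centred 21.9 kb past the first start, was at 1.58 to 5.60% over the 10 mice. Methylation was higher in chr1:52007501-52008500, with group means of 44.0, 38.9 and 40.5% (saline, OVA and DSE), and in chr1:52008001-52009000 (24.9, 24.2 and 22.9%). Averaged over the 4 windows, the Stat4 promoter level was 19.1, 17.5 and 17.7% in the same order. Over its 28 windows Stat4 had 47.1, 47.7 and 48.1% in the saline mice, 49.1, 48.4 and 51.9% in the OVA-induced mice and 49.5, 52.0, 51.9 and 50.6% in the DSE-treated mice. All mice given OVA were above all saline mice. The gene level rose by 3.39 points in DSE vs. saline (SE 0.982, limma adjusted p = 0.0388), a call that held only without DSE replicate 1, was lost without any other single mouse of these groups (3.06 to 3.61 points, adjusted p 0.0715 to 0.105) and was 1.1 points with calls pooled (limma adjusted p = 0.535). It was 2.16 in OVA vs. saline (SE 1.05, limma adjusted p = 0.189). In DSE vs. OVA 0 of the 9 genes passed at gene level by limma, with 2 at an unadjusted p under 0.05, beside 0.0274% of all genes.

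**Figure D4:**
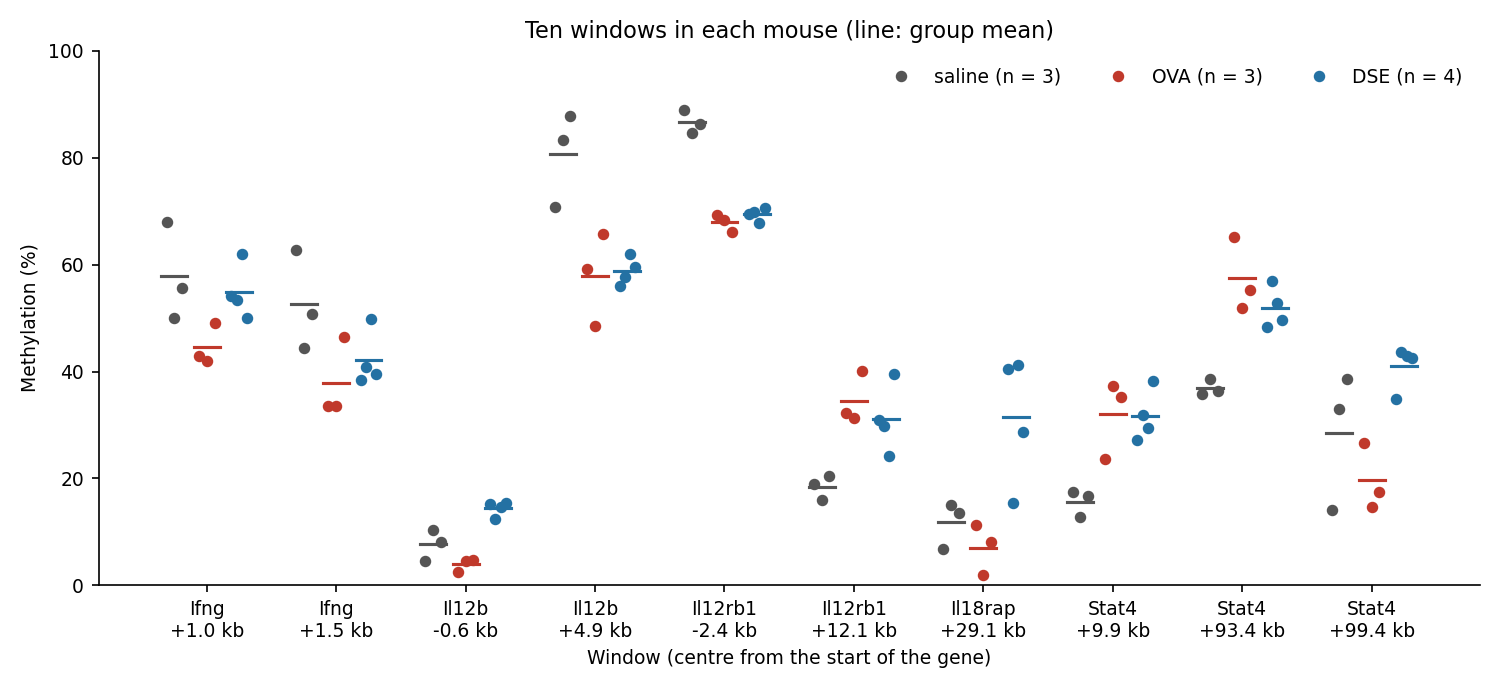
Methylation (%, vertical axis) of 10 windows of Ifng, Il12b, Il12rb1, Il18rap and Stat4, named by gene and by the distance of their centre from its start (horizontal axis), in each of 3 saline, 3 OVA-induced and 4 DSE-treated mice (points) with the group mean (lines). The DSE-treated mice are the highest at the Il12b flank (12.4 to 15.4%) and at Il18rap (15.5 to 41.2%), and the mice given OVA with and without DSE lie together away from saline at Il12rb1.

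The other genes of the pathway were a list of 28: partner subunits and inhibitors, kinases, transcription factors and targets. They had 483 windows that passed, of which 63 (13%) were called in OVA vs. saline (44 hyper and 19 hypo), 2 (0.414%, both hyper) in DSE vs. OVA and 75 (15.5%) in DSE vs. saline (45 hyper and 30 hypo), to be read against the shares of all windows given above. At gene level 4 of 26 rose and 1 fell in OVA vs. saline by limma, where 12.5% of all genes passed. Among them, Runx3, a factor that acts with T-bet at Ifng, rose by 4.58 points (adjusted p = 0.0196), Ebi3, a subunit of IL-27, by 3.21 (0.0269) and Irak1, a kinase below the IL-18 receptor, by 6.47 (0.0319), while Socs1, an inhibitor of JAK kinases, fell by 4.39 (0.005). In DSE vs. saline 5 rose and 2 fell, where 18.8% of all genes passed, among them Socs1, which fell by 3.49 points (limma adjusted p = 0.00513), and Tyk2, a kinase of the IL-12 receptor, which fell by 3.18 (0.0141). In DSE vs. OVA 0 of 26 passed, with 4 at an unadjusted p under 0.05. At promoter level, Jak1, a kinase of the interferon gamma receptor, fell by 4.02 points in OVA vs. saline (limma adjusted p = 0.0129) and rose by 4.13 in DSE vs. OVA (0.0194), the only one of 24 to pass there, beside 1.94% of all genes. Hlx, a homeobox factor of type 1 helper T cells, was the other promoter level to pass in OVA vs. saline, where 8.08% of all genes did, with a rise of 1.92 points (0.0139). In DSE vs. saline 4 of 24 promoter levels rose and 0 fell, with 2 lower at an unadjusted p under 0.05 by limma, where 17.5% of all genes passed. Among them Hlx rose by 1.96 points (limma adjusted p = 0.00629), Cxcl10, a chemokine induced by interferon gamma, by 2.53 (0.0306) and Traf6, an adaptor below the IL-18 receptor, by 0.691 (0.0429). Tbx21, which encodes T-bet, the lineage factor of type 1 helper T cells, had gene-level means of 45.6, 45.5 and 47.3% in saline, OVA-induced and DSE-treated mice and passed in no comparison.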

How the data were processed

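CpG methylation was profiled by SureSelect Methyl-seq in lungs of 3 saline, 3 OVA-induced and 4 DSE-treated mice. Per the labels' processing notes, the authors trimmed reads with cutadapt 1.10, aligned them with Bismark 0.19.0 and tiled calls with methylKit 1.0.0. The deposited table holds counts of total, methylated and unmethylated CpG calls per mouse in 1000-bp windows with a step of 500 bp on mm10. Its counts were used as deposited. Bisulfite calls do not tell a C-to-T strain difference from an unmethylated C, and no strain variants were used here.

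A window was tested if each of the 10 mice had 20 calls or more in it. For each window a logistic likelihood ratio test without overdispersion was computed in Python 3.11.15 with numpy 2.4.6 and scipy 1.17.1, with Benjamini-Hochberg adjustment over 421759 windows. limma 3.58.1 (R 4.3.3) tested M-values with a pseudocount of 1 per window, and percent methylation averaged over the windows of each gene (32825 genes with at least 3 windows) or over those within 1000 bp of a RefSeq start (24652 genes), with an intensity trend. Exact permutation tests were two-sided. The scripts' statistics were first checked on simulated counts. Gene spans, exons and sequences came from the RefSeq annotation of GRCm38. Each mouse was taken as a separate animal, although the labels give only replicate numbers. The limma, F test and permutation p values therefore measure the spread between these libraries. Those of the likelihood ratio test do not include that spread. Calls from PCR copies of a fragment are not independent, so adjusted p values of the likelihood ratio test are too small where reads are duplicated.

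The members and gene lists were chosen with earlier results of these data known. The windows described were, for each gene, that nearest the start, those with the greatest OVA vs. saline and the greatest DSE vs. OVA difference, and called windows; other windows named here were chosen after their values were seen. Alternatives were other call minimums, tests, thresholds, window sets, scalings, gene limits, the replicate number as a block and leaving out each mouse.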

Additional observations from a re-analysis of the deposited data

Results flagged for a closer look

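Of 40 values of the DSE-treated mice tested for a sample far from the rest of its group by Dixon's ratio (critical value 0.829 for 4 samples), 2 stood apart; chance alone marks about 1 group in 20. In the Il18r1 window chr1:40478501-40479500, DSE replicate 3 was at 66.9% and the other DSE-treated mice at 51.0 to 52.9% (ratio 0.882). In the Stat4 window chr1:52086001-52087000, DSE replicate 1 was at 34.9% and the others at 42.6 to 43.7% (ratio 0.876). Groups of 3 were not tested in this way.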

How the results depend on the processing

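Most DMR calls rest on a test without a term for the spread between mice, on few calls in some windows and on 3 or 4 mice a group. With the F test with overdispersion, 0 DMR windows of the 9 genes were called in each comparison. With limma on M-values at adjusted p of 0.01 and 10 points OVA vs. saline had 0, DSE vs. OVA 0 and DSE vs. saline 4, and at adjusted p of 0.05 there were 11 and 2 in the first and second. A threshold of 20 points gave 1, 3 and 4, and every other window, 68 in all, gave 7, 3 and 13. The shares of all windows called under these stricter thresholds and with every other window are not given here. These counts therefore show how the calls depend on the rule and do not compare the 9 genes with all windows. Without single mice the counts ran from 13 to 21, 4 to 9 and 18 to 24, and 8 of 17, 3 of 6 and 11 of 26 windows stayed called without every mouse in turn. The 3 in DSE vs. OVA were 2 Il18rap windows, which hold the same calls, and 1 Stat4 window. The other alternatives for the counts of DMR windows stayed within 1.5 times.

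At gene level in OVA vs. saline the count of 1 became 0 with pooled calls and with their M-values, and 2 with a minimum of 50 calls and with the gene span only; without single mice it was 0 to 1, and the 1, without saline replicate 3, was a different gene called lower, Il18r1 (-5.23 points, limma adjusted p = 0.0451, against -3.42 with all mice), not Il12rb2. In DSE vs. OVA it stayed at 0 (0 to 0 without single mice). In DSE vs. saline the count of 2 became 1 with pooled calls, with their M-values and with every other window, and 4 with the gene span only. With every other window Il18rap had fewer than 3 windows and was not tested, which left 8 genes. Stat4 passed there (4.65 points, limma adjusted p = 0.0103). Without single mice the count was 0 to 2. Without saline replicate 3 the 1 gene called was again Il18r1, lower (-5.28 points, limma adjusted p = 0.0296). At promoter level in DSE vs. saline the count of 2 became 1 with every other window and with 500 bp around start sites, and was 1 to 2 without single mice. Without DSE replicate 4 the gene called lower was Il12rb2 (-3.03 points, limma adjusted p = 0.0253, against -1.97 and 0.231 with all mice). Il12rb1 did not pass there (adjusted p = 0.0541). Without single mice the promoter count was 0 to 0 in OVA vs. saline and 1 to 1 in DSE vs. OVA. Signs turned for the gene-level differences of Ifng, to 1.602 points (0.17 on the M-value scale) in OVA vs. saline and -2.60 points (-0.30) in DSE vs. OVA, and of Ifngr1 in DSE vs. saline, from -1.08 to 0.673 points (0.0607), with pooled calls, which weight windows by depth; none of these passed in either form.

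The replicate numbers do not pair the mice: correlations of same-numbered mice's deviations were -0.0273 to 0.0785. With the number as a replicate block the DMR windows were 17, 6 and 22, genes passing at gene level 0, 0 and 0, and promoter levels 0, 1 and 1. Windows of low depth could not be given at a minimum of 50 calls, among them the Il12b window chr11:44404501-44405500.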

Other observations

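Of the 134 windows at the 9 genes, 5 had fewer than 20 calls in at least 1 mouse and entered no comparison: 3 at Ifngr1, 1 at Il12rb1 and 1 at Stat4.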
